A study of Mus musculus with 48 samples.

Results

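The genes Xcr1, Clec9a, Batf3, Flt3, Zbtb46, Cd209a, Siglech and Fscn1, which mark dendritic cells, were followed through 48 RNA-seq libraries of cells sorted from mice bearing B16F10 melanoma, a transplanted tumor line of C57BL/6J origin. They were taken as a list of 8 symbols out of 34932 genes with a transcript in the files, and all 8 were found. The sorts took CD45+ cells that carried neither CD4 nor CD8, CD8+ T cells and CD4+ T cells, from tumors (TILs) and from tumor-draining inguinal lymph nodes (TDLNs) of wild-type (WT) and Yap-cKO C57BL/6J mice, giving 4 libraries in each of the 12 groups. Yap-cKO mice carry loxP-flanked Yap alleles, a CD4-Cre transgene that acts at the double-positive stage of thymic T-cell development and, by the study's methods, a lox-stop-lox EYFP reporter. By the same source all mice were young adults and the WT controls were littermates. The Cre places the deletion in T cells, and dendritic cells would be sorted with the CD45+ CD4- CD8- cells.

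Dendritic cells take up antigen, carry it to the lymph node and present it to T cells. Conventional type 1 cells (cDC1) depend on the factors Irf8 and Batf3 and cross-present antigen to CD8+ T cells, type 2 cells (cDC2) mainly address CD4+ T cells, plasmacytoid cells (pDCs) secrete type I interferon, and any of the conventional kinds can mature, migrate and gain Fscn1. In the mouse, node-resident cDC1s carry CD8 alpha, and some cDC2s and pDCs carry CD4, so a CD4- CD8- gate leaves such cells out of the CD45+ sort. How many were left out was not tested.

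Levels are given as CPM, counts relative to library size after TMM scaling over all 48 libraries, unless TPM, which also divides by transcript length, is named. Libraries held 12656510 to 24213892 counts on genes, so that 3 counts, taken here as the floor, correspond to 0.124 to 0.237 unscaled CPM. A gene was called when edgeR's quasi-likelihood test gave a Benjamini-Hochberg adjusted p below 0.05 over all genes tested and the log2 fold change was beyond 1 in either direction, with 4 libraries in each group. The targeted gene, Yap1, was at 13.0 to 27.3 CPM in WT T-cell TILs and at 1.63 to 6.37 CPM in Yap-cKO T-cell TILs, whereas in TDLN T cells it was at 1.26 to 2.59 CPM in WT mice against 1.13 to 4.53 CPM in Yap-cKO, so that the genotypes overlapped in TDLN T cells and not in tumor T cells. They did not overlap in CD45+ TILs either (2.74 to 5.32 CPM in WT mice against 1.52 to 2.03 CPM in Yap-cKO), and did in CD45+ TDLN cells (1.54 to 2.48 and 1.17 to 2.31 CPM). Sums of 6 melanoma and 7 fibroblast and pericyte genes, reported beside Fscn1 for the tumor T cells, were also without overlap between the genotypes there, and their part in the Yap1 difference was not tested. Ddx3y and Eif2s3y, both Y-linked, exceeded 5 CPM in 18 libraries, those of WT replicates 1 to 3, and in none of the other 30, so that for these replicates genotype and the sex of the mice cannot be told apart.

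For orientation, the 250 bases before the RefSeq transcription start are shown for 3 of the genes, on the GRCm38.p6 assembly. Xcr1 and Clec9a are shown because they encode the 2 cDC1 surface receptors and yet were distributed differently over the sorts, and Siglech because it stands for the plasmacytoid lineage. Capitals mark matches to CACGTG (an E-box), GGAAGT (an Ets core) or TATAAA, searched on both strands (the first is a palindrome). The Xcr1 stretch is chr9:123862030-123862279 on the minus strand, that of Clec9a chr6:129408612-129408861 on the plus strand, and that of Siglech chr7:55767934-55768183 on the plus strand.
Xcr1: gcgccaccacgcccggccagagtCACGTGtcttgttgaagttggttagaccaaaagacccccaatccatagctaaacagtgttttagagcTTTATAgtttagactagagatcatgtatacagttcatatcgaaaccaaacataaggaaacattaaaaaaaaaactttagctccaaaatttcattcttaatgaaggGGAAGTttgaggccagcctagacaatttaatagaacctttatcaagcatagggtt
Clec9a: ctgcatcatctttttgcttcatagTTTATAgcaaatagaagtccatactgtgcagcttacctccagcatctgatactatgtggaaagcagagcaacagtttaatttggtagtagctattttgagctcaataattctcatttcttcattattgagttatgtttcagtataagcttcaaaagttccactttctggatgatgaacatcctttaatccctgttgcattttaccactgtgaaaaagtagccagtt
Siglech: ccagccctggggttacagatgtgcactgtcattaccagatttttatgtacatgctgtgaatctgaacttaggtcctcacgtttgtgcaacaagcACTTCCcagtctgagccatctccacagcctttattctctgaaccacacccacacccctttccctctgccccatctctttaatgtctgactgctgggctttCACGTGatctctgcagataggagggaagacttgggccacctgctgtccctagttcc

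Over 32851 such RefSeq windows, 6.02% hold CACGTG, 19.7% hold GGAAGT and 12.4% hold TATAAA on either strand. Among the 8 genes CACGTG was found for Xcr1, Batf3 and Siglech, GGAAGT for Xcr1, Batf3, Flt3, Cd209a and Siglech, and TATAAA for Xcr1, Clec9a, Cd209a and Fscn1. The last of these, in Fscn1, began 31 bases before the start on the sense strand. The AP-1 motif TGANTCA, which Batf-family factors can bind, was found only for Zbtb46 (6.75% of all windows), and neither the interferon-stimulated response element (2.98%) nor the Ets-IRF composite element (2.3%) was found in the 8 windows. The RefSeq starts of Zbtb46 and Batf3 lie 35038 and 567 bases inside the GENCODE genes, so that their windows are intragenic. A match describes letters and says nothing about binding.

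The 8 genes were highest in CD45+ tumor libraries. For each of them the WT and Yap-cKO CD45+ TIL groups had the 2 highest means of the 12 groups, and WT and Yap-cKO CD45+ TILs overlapped in every gene but Fscn1.

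**Figure D1:**
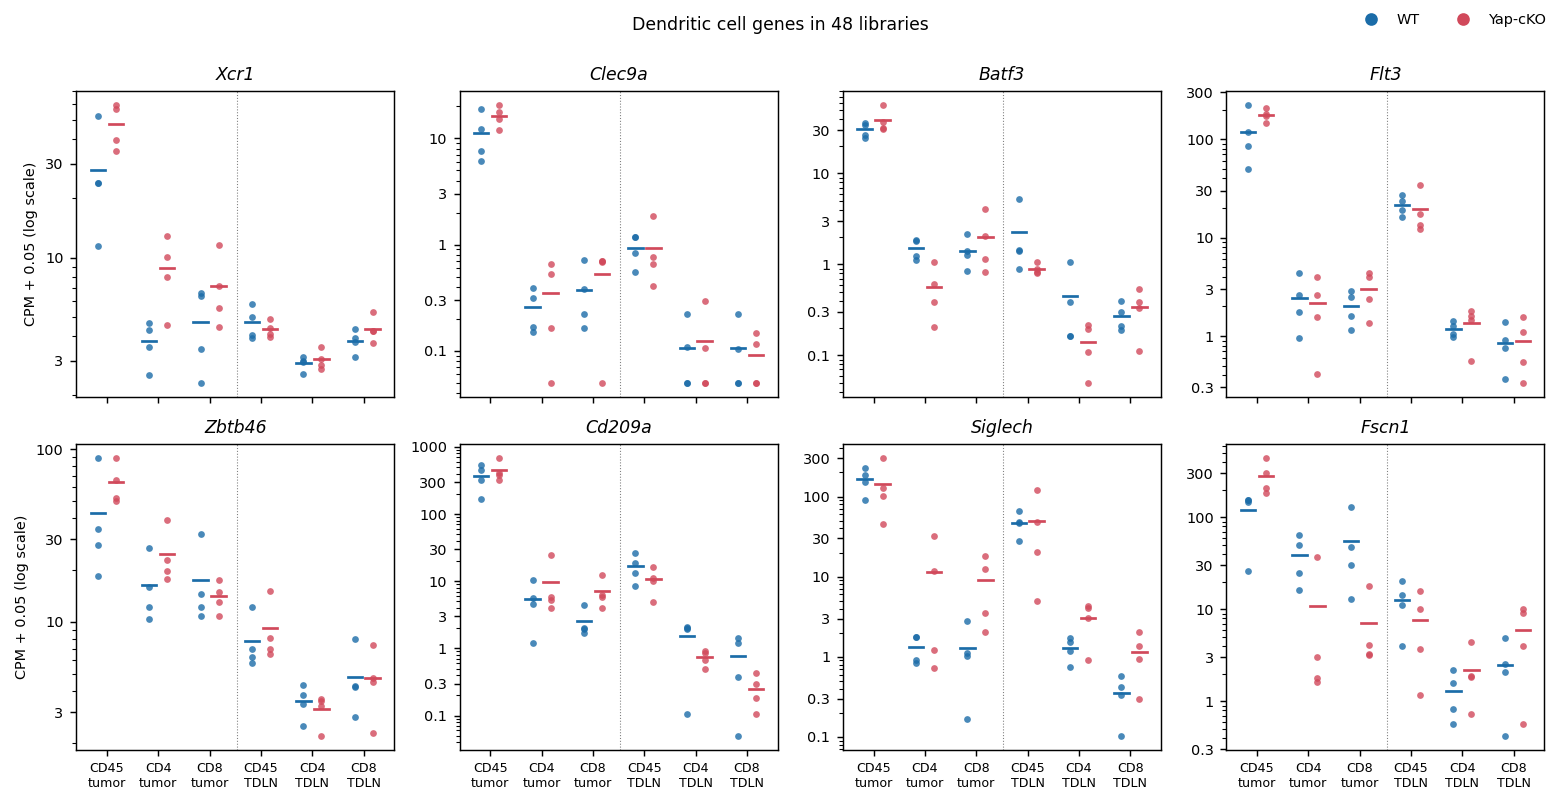
Level of each of the 8 genes in each library, as CPM + 0.05 on a log axis, by sorted population and tissue; points are libraries, bars are group means, blue is WT and red is Yap-cKO. The 2 CD45+ tumor groups have the highest means for all 8 genes, and in tumors only Xcr1, Zbtb46 and Fscn1 have T-cell libraries that reach the CD45+ range.

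Among the cDC1 genes, Xcr1 encodes the receptor for the chemokine XCL1. In CD45+ TILs it was at 23.9, 52.7, 24.0 and 11.4 CPM in WT mice against 34.6, 59.9, 56.6 and 39.6 CPM in Yap-cKO. Its CD45+ TDLN values were 5.77, 4.98, 3.87 and 4.00 CPM in WT mice against 4.85, 4.34, 4.03 and 3.91 CPM in Yap-cKO. Every tumor library was above every TDLN library, and the genotypes overlapped in both tissues. The log2 fold change of tumor over TDLN was 2.54 (SE 0.43, edgeR adjusted p = 0.000788) in WT and 3.42 (SE 0.24, edgeR adjusted p = 8.71e-07) in Yap-cKO. In TDLN T cells Xcr1 was at 2.53 to 5.24 CPM in 16 libraries, overlapping with the CD45+ values, and neither WT (log2 0.52, SE 0.22, edgeR adjusted p = 0.0991) nor Yap-cKO (log2 0.24, SE 0.23, edgeR adjusted p = 0.489) CD45+ TDLN cells passed the test against T cells. The mean of TDLN T cells was 77.8% of that of CD45+ TDLN cells, against 16.1% in tumors. Xcr1 has a single annotated transcript, on chr9:123852315-123862029.

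Clec9a, a C-type lectin that binds actin exposed by dead cells, marked the CD45+ sort far more sharply. It was at 7.55, 19.0, 12.3 and 6.11 CPM in WT CD45+ TILs and 20.8, 17.6, 15.2 and 11.9 CPM in Yap-cKO CD45+ TILs. The CD45+ TDLN libraries held 0.504, 0.784, 1.12 and 1.14 CPM in WT mice against 1.80, 0.613, 0.356 and 0.722 CPM in Yap-cKO, that is 6 to 36 counts per library. All tumor libraries were above all TDLN libraries, with a log2 fold change of 3.62 (SE 0.45, edgeR adjusted p = 0.000148) in WT and 4.15 (SE 0.45, edgeR adjusted p = 1.76e-05) in Yap-cKO. T-cell libraries reached at most 0.666 CPM in tumors and 0.242 CPM in TDLNs, below the lowest CD45+ library of the same tissue. Transcripts Clec9a-201 and Clec9a-202 took 71.1% and 14.1% of the counts in CD45+ libraries. In 3 of the 4 TDLN T-cell groups no library held more than 3 counts, and CD45+ cells were then at least 5.11-fold higher than WT CD4+, at least 4.91-fold higher than WT CD8+ and at least 4.95-fold higher than Yap-cKO CD8+ cells, on unscaled CPM with the floor set per library. The start of Clec9a lies within the annotated span of Clec1b, chr6:129397297-129409335, on the same strand, and Clec1b averaged 1.34 CPM in CD45+ TILs and 0.155 CPM in CD45+ TDLN cells.

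Batf3, the bZIP factor required for cDC1 development, was at 24.8, 35.9, 34.2 and 26.7 CPM in WT CD45+ TILs and 57.2, 30.9, 36.5 and 31.2 CPM in Yap-cKO CD45+ TILs. CD45+ TDLN libraries were at 1.35, 0.830, 1.40 and 5.20 CPM in WT mice against 0.749, 0.766, 1.01 and 0.843 CPM in Yap-cKO. WT TDLN replicate 4 stood above the other 7 TDLN libraries but far below every tumor library. The tumor over TDLN log2 fold change was 3.75 (SE 0.55, edgeR adjusted p = 0.000343) in WT and 5.46 (SE 0.29, edgeR adjusted p = 1.19e-07) in Yap-cKO. In T cells Batf3 was low, at 0.153 to 3.98 CPM in tumors and 0 to 1.01 CPM in TDLNs. Of its counts in CD45+ libraries, 82.3% fell on transcript Batf3-201 and 10.3% on the non-coding Batf3-204.

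Flt3 and Zbtb46, shared by the conventional lineage, were both higher in tumor than in TDLN in CD45+ cells and differed in T cells. Flt3, the receptor tyrosine kinase through which FLT3L drives dendritic cell production, was at 85.1, 225, 119 and 49.3 CPM in WT CD45+ TILs and 207, 147, 182 and 172 CPM in Yap-cKO CD45+ TILs. The TDLN values of CD45+ cells were 23.6, 16.2, 19.2 and 27.2 CPM in WT mice against 34.3, 13.4, 12.3 and 17.2 CPM in Yap-cKO. The tissues did not overlap in either genotype, with a log2 fold change of 2.42 (SE 0.43, edgeR adjusted p = 0.00103) in WT and 3.14 (SE 0.32, edgeR adjusted p = 1.17e-05) in Yap-cKO. T cells held 0.36 to 4.32 CPM in tumors and 0.285 to 1.76 CPM in TDLNs, 1.59% and 4.99% of the CD45+ mean. In CD45+ libraries 98.8% of its counts fell on transcript Flt3-201.

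Zbtb46, a transcription factor of conventional dendritic cells that is also expressed in endothelium, was at 18.4, 89.3, 34.5 and 27.8 CPM in WT CD45+ TILs and 65.8, 52.0, 88.9 and 50.1 CPM in Yap-cKO CD45+ TILs. Its values in CD45+ TDLN libraries were 12.1, 5.72, 6.94 and 6.22 CPM in WT mice against 8.04, 6.90, 6.46 and 15.1 CPM in Yap-cKO. The tissues again did not overlap (log2 2.41, SE 0.49, edgeR adjusted p = 0.00226 in WT and log2 2.76, SE 0.32, edgeR adjusted p = 2.7e-05 in Yap-cKO). Tumor T-cell libraries held 10.3 to 38.7 CPM of Zbtb46, and 5 of those 16, against none for Flt3, reached the lowest CD45+ TIL library. In T cells it was higher in tumor than in TDLN in all 4 comparisons, by log2 2.24 in WT CD4+, 3.04 in Yap-cKO CD4+, 1.90 in WT CD8+ and 1.62 in Yap-cKO CD8+ cells (edgeR adjusted p = 0.000409, 0.000535, 0.00639 and 0.0145). The transcripts that carried these counts also differed when counts were pooled over libraries and genotypes. The longest form, Zbtb46-201, took 71.8% and 62.0% of the Zbtb46 counts of CD4+ and CD8+ TDLN cells but 26.5% and 41.4% in the corresponding TILs, where the shorter Zbtb46-202 took 51.0% and 44.3%. Single TDLN T-cell libraries held only 39 to 150 Zbtb46 counts, and the spread of these shares between libraries was not tested.

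**Figure D2:**
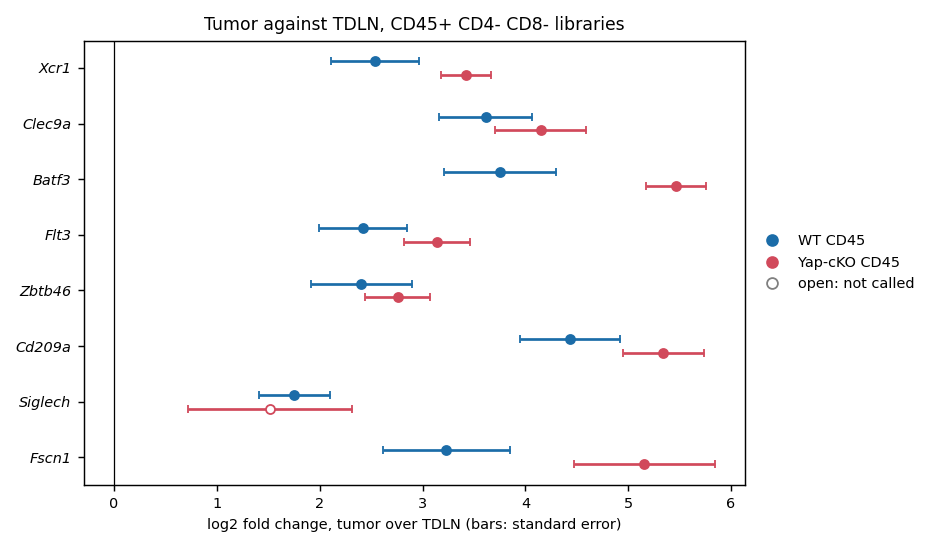
Log2 fold change of tumor over TDLN in CD45+ CD4- CD8- libraries for the 8 genes, with standard errors, in WT (blue) and Yap-cKO (red) mice; filled points were called. All 8 genes lie above 0, from 1.52 for Siglech in Yap-cKO, the only gene not called, to 5.46 for Batf3 in Yap-cKO.

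Cd209a, a mouse homolog of DC-SIGN found on cDC2s and monocyte-derived dendritic cells, had the highest TPM of the 8 in CD45+ TILs, with means of 294 in WT and 362 in Yap-cKO mice. In CPM it was at 327, 543, 457 and 165 CPM in WT CD45+ TILs and 693, 402, 319 and 381 CPM in Yap-cKO CD45+ TILs. CD45+ TDLN cells had 18.6, 8.39, 13.3 and 26.6 CPM in WT mice against 16.2, 10, 4.86 and 11.3 CPM in Yap-cKO. Tumor exceeded TDLN without overlap, by log2 4.43 (SE 0.49, edgeR adjusted p = 7.84e-05) in WT and 5.34 (SE 0.40, edgeR adjusted p = 1.2e-06) in Yap-cKO. T-cell TILs held 1.16 to 24.4 CPM, all below the lowest CD45+ TIL library. Transcript Cd209a-201 took 97.2% of the counts in CD45+ libraries. Related lectins of the same family can share reads with it, and the nearest in level, Cd209d, averaged 56.3 CPM in CD45+ TILs and 7.67 CPM in CD45+ TDLN cells.

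Siglech, a sialic acid-binding lectin of pDCs, had the highest mean TPM of the 8 in CD45+ TDLN cells of both genotypes, and in Yap-cKO the widest spread of the 8 there. It was at 230, 186, 151 and 91.0 CPM in WT CD45+ TILs and 127, 101, 44.7 and 306 CPM in Yap-cKO CD45+ TILs. Among CD45+ TDLN libraries the values were 46.5, 27.7, 48.3 and 66.2 CPM in WT mice against 122, 20.3, 4.86 and 48.1 CPM in Yap-cKO. The highest Yap-cKO TDLN library was 25.1-fold above the lowest, against 2.39-fold in WT. WT tumor and TDLN libraries did not overlap (log2 1.75, SE 0.34, edgeR adjusted p = 0.00188), whereas Yap-cKO libraries did (log2 1.52, SE 0.80, edgeR adjusted p = 0.127). Without Yap-cKO TDLN replicate 1 the Yap-cKO difference was log2 2.49 (edgeR adjusted p = 0.0202). Its counts were spread over 8 transcripts, with 44.1% on Siglech-201, 13.5% on Siglech-202, 12.9% on Siglech-204 and 12.6% on Siglech-205.

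Fscn1 encodes fascin, an actin-bundling protein of mature dendritic cells that is also made by many non-immune cells. It was at 25.9, 156, 147 and 153 CPM in WT CD45+ TILs and 300, 206, 446 and 184 CPM in Yap-cKO CD45+ TILs. The CD45+ sort of TDLNs gave 11.1, 3.92, 14.4 and 20.3 CPM in WT mice against 9.94, 15.7, 1.13 and 3.67 CPM in Yap-cKO. Tumor exceeded TDLN without overlap, by log2 3.23 (SE 0.62, edgeR adjusted p = 0.0016) in WT and 5.16 (SE 0.68, edgeR adjusted p = 8.23e-05) in Yap-cKO. Transcript Fscn1-201 took 96.3% of its counts in CD45+ libraries.

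In all, 8 of 8 genes in WT and 7 of 8 in Yap-cKO CD45+ cells were called higher in tumors, where 39.9% and 40.3% of all genes tested were called in either direction and 21.9% and 21.8% as higher. The median log2 fold change of the 8 was 2.89 and 3.78, against -0.08 and -0.09 over all genes. The values of 8 genes in WT and 7 in Yap-cKO did not overlap between tumor and TDLN, as was the case for 47.9% and 51.7% of all genes. The other cells of the CD45+ sort also differed between the tissues: 6 B-cell genes summed to 7960 to 9890 CPM there and to 240 to 1700 CPM in CD45+ TILs, while 10 macrophage and monocyte genes summed to 99.7 to 836 CPM and 5370 to 8160 CPM. In sorted bulk samples fewer dendritic cells and less RNA per dendritic cell cannot be told apart, and the part of these other cells in the tumor to TDLN difference was not tested. The CD4- CD8- gate also leaves out node-resident cDC1s and some cDC2s and pDCs, and its part in the difference was not tested.

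To ask how the 8 genes stood to each other, their shares of the summed TPM of all 8 were compared within each CD45+ library. Cd209a took 38.7 to 54.4% in WT and 39.3 to 55.8% in Yap-cKO TILs but 14.9 to 19.5% and 11.2 to 23.2% in TDLNs. Siglech took 17.0 to 32.1% and 4.39 to 27.8% in tumors but 53.1 to 58.6% and 21.2 to 70.0% in TDLNs. The most abundant of the genes was thus Cd209a in each of the 8 CD45+ TIL libraries, and Siglech in 7 of the 8 CD45+ TDLN libraries, the exception being Yap-cKO replicate 3, with 23.2% Cd209a, 21.8% Flt3 and 21.2% Siglech. Clec9a took 0.85 to 2.32% in tumors and 0.213 to 1.77% in TDLNs.

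**Figure D3:**
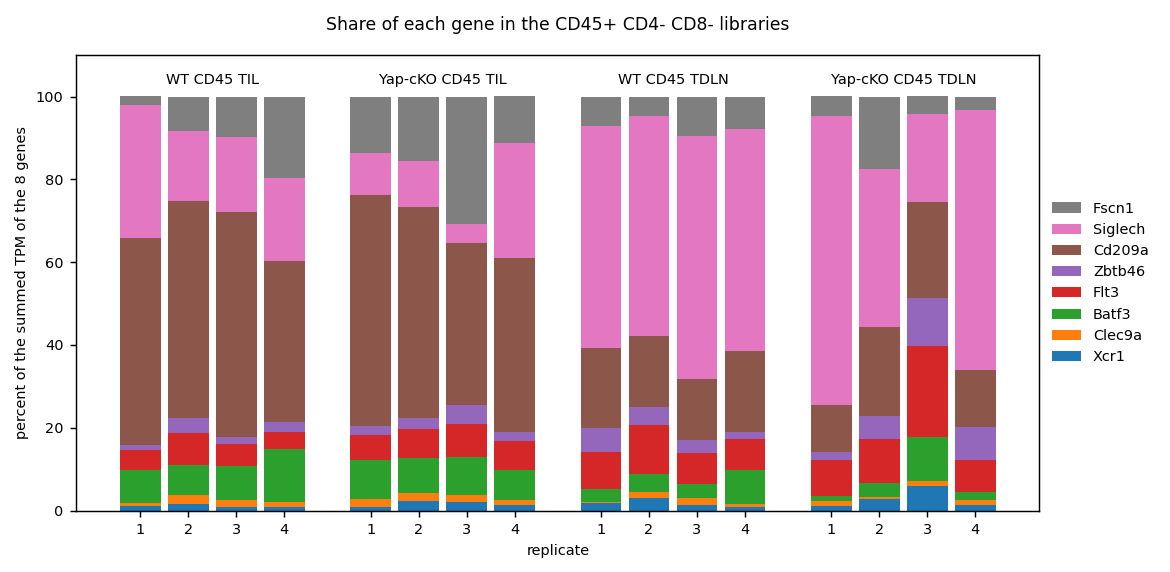
Share of each of the 8 genes in their summed TPM, in percent, for each of the 16 CD45+ CD4- CD8- libraries, grouped by genotype and tissue. Cd209a (brown) forms 38.7 to 55.8% of the tumor bars, and Siglech (pink) forms over 50% of the 4 WT TDLN bars.

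Set against Flt3 in the same library, Cd209a was higher in tumor than in TDLN by 2.19 on the log2 TPM scale in WT and 2.18 in Yap-cKO, Batf3 by 1.70 and 2.17, and Clec9a by 1.46 and 1.34. Xcr1 and Zbtb46 kept close to Flt3, with differences of 0.09 and 0.02 in WT and 0.08 and -0.34 in Yap-cKO, whereas the difference of Siglech was -0.65 and -1.31. Only Cd209a in both genotypes, and Clec9a and Batf3 in Yap-cKO, were without overlap between the tissues (two-sided exact permutation p = 0.0286 each, the smallest that 4 against 4 libraries allow), and after adjustment over the 14 ratios these exact permutation tests gave an adjusted p of 0.1. None of the 14 ratios passed the adjusted threshold. With an exact permutation p no smaller than 0.0286, the few ratios without overlap could not have passed it alone, so the adjusted test does not decide on them.

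Other genes of the same lineages, listed by class, were read in the same fits. Of 7 other cDC1 genes tested, 5 were called higher in tumor and none lower in both genotypes, with a median log2 fold change of 3.47 in WT and 3.82 in Yap-cKO. These were Rab7b (log2 4.67 and 6.17), Cadm1 (3.84 and 3.44), Tlr3 (3.70 and 4.17), Naaa (3.46 and 3.82) and Itgae (2.25 and 4.00). Irf8, the factor that specifies cDC1s and is also strongly expressed in B cells, was at 504 to 1470 CPM in CD45+ TILs and 536 to 907 CPM in CD45+ TDLN cells, and was not called in either genotype (log2 0.29 and 0.52).

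Of 8 other cDC2 genes, 5 in WT and 6 in Yap-cKO were called higher in tumor and 2 lower. The C-type lectin Mgl2 rose most (log2 5.49 and 7.96), with Clec10a (4.26 and 4.87), Sirpa (3.66 and 5.27) and Itgam (3.46 and 5.79). The genes that fell were Irf4 (log2 -2.90 and -2.93) and Ltb (-2.30 and -2.89), both of which B cells also express. Macrophages share several of the genes that rose.

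Of 10 other plasmacytoid genes, 6 were called higher in tumor and 2 lower in both genotypes. The largest rises were those of Klk1 (log2 2.74 and 3.16), Ccr9 (2.48 and 1.99), Cox6a2 (2.40 and 2.09) and Cd300c (1.85 and 1.90). The genes that fell were Spib (-2.72 and -3.11), which B cells use as well, and Pacsin1 (-1.05 and -1.01). Siglech was called higher in WT, as most of these were.

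Of 14 other genes of mature dendritic cells, 6 in WT and 7 in Yap-cKO were called higher in tumor, and 4 and 2 lower. The cytokine subunit Il12b (log2 6.19 and 7.13), the chemokines Ccl17 (4.47 and 8.73) and Ccl22 (3.60 and 5.50) and the costimulatory ligand Cd80 (4.17 and 4.53) rose, as Fscn1 did. Ccr7, the receptor that guides mature dendritic cells and naive lymphocytes to nodes, fell (log2 -2.71 and -2.46), from 3190 to 5960 CPM in CD45+ TDLN cells to 568 to 1060 CPM in CD45+ TILs. The CD45+ TDLN range of Ccr7 lay within that of TDLN T cells, at 2260 to 8890 CPM. Of 7 genes of MHC class II presentation and of dendritic cells at large, Itgax was called higher in tumor (log2 2.94 and 3.65) and Ciita and Btla, both also B-cell genes, lower (-1.62 and -1.20, and -1.88 and -1.96), in both genotypes. Of the others, H2-Aa was at log2 -0.56 and -0.33, H2-Ab1 at -0.45 and 0.20 and Cd74 at -0.88 and -0.31, and none of them was called.

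Between sorted populations, all 8 genes were called higher in CD45+ TILs than in T-cell TILs in both genotypes, where 34.3% of all genes in WT and 31.7% in Yap-cKO were called in either direction and 15.7% and 17% as higher, and the median over the 8 was 4.99 and 5.15 on the log2 scale against -0.07 and -0.10 over all genes. In WT the rise was largest for Siglech (log2 7.11, SE 0.48) and Cd209a (6.74, SE 0.49), and smallest for Fscn1 (1.47, SE 0.54) and Zbtb46 (1.41, SE 0.40). Without WT CD45+ TIL replicate 2, Zbtb46 was at log2 0.79 (edgeR adjusted p = 0.107). The call of Fscn1 was lost without any of 8 of the 12 libraries (log2 1.31 to 1.44, with an edgeR adjusted p of 0.0518 to 0.107). Scaling on 15 leukocyte genes instead of TMM shifted the median of all genes to -1.45 in this comparison and left Zbtb46 at log2 0.02 and Fscn1 at 0.09. In TDLNs 5 of the 7 genes tested were called higher in CD45+ cells in each genotype (25.2% of all genes called and 14% as higher in WT, 24.3% and 12.2% in Yap-cKO). These were Batf3, Flt3, Cd209a, Siglech and Fscn1 in WT and Batf3, Flt3, Cd209a, Siglech and Zbtb46 in Yap-cKO, and Clec9a did not pass the count filter. In TILs it met the filter through the CD45+ libraries and could hardly have been called lower. In WT TILs Clec9a held 100 to 396 counts in CD45+, 2 to 7 in CD4+ and 2 to 15 in CD8+ libraries. In TDLNs Batf3 in both genotypes and Cd209a in Yap-cKO met the filter only with the CD45+ libraries. These too could hardly have been called lower. Batf3 held 18 to 82 counts in WT CD45+ TDLN libraries against 2 to 18 in T cells, and 14 to 17 against 0 to 10 in Yap-cKO.

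The ligands of these receptors were read from T-cell and CD45+ libraries alike. Flt3l, which encodes the growth factor for FLT3, was lower in CD45+ cells than in T cells, with log2 fold changes of -1.76 in WT TILs, -2.38 in Yap-cKO TILs, -2.21 in WT TDLN and -2.23 in Yap-cKO TDLN cells. Its range was 11.7 to 95.4 CPM in tumor T cells and 7.92 to 11.8 CPM in CD45+ TILs. Xcl1, the ligand of XCR1, spanned 2.32 to 315 CPM in tumor T cells and 36.0 to 58.7 CPM in CD45+ TILs. It was not called in CD45+ cells against the average of CD4+ and CD8+ cells, whose means lay on either side. In WT TILs the means were 9.04 CPM in CD4+, 41.1 CPM in CD45+ and 132 CPM in CD8+ cells. CD4+ and CD8+ cells were not tested against each other. Xcl1 was higher in tumor than in TDLN in CD45+ cells (log2 2.15 in WT and 2.49 in Yap-cKO). The same held in all 4 T-cell comparisons (2.53 to 4.22).

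The comparison of genotypes sets Yap-cKO against WT libraries of each sorted population, with genotype and sex tied for most WT replicates, as given above. In CD45+ cells none of the 8 genes was called by edgeR, either in tumors (0.991% of all genes called) or in TDLNs (0.0596%), and 1 gene in each tissue had an unadjusted p below 0.05. The median of the 8 fold changes in CD45+ TILs was 0.53 on the log2 scale against 0.01 over all genes. Some of the 8 deviated together between CD45+ libraries, as reported below, so that they are not 8 separate observations. Fscn1 in CD45+ TILs was the only gene whose 4 Yap-cKO libraries, at 184 to 446 CPM, were all above the 4 WT libraries, at 25.9 to 156 CPM (two-sided exact permutation p = 0.0286, the smallest possible), which was so for 11.5% of all genes in either direction. Its log2 fold change was 1.21 (SE 0.48, edgeR adjusted p = 0.231). In the same libraries the B-cell sum was 846 to 1700 CPM in WT and 240 to 868 CPM in Yap-cKO, and the melanoma sum 1000 to 1680 and 112 to 465 CPM, while the macrophage and monocyte sums overlapped (5370 to 7980 and 5460 to 8160 CPM). Their part in these values was not tested. By the edgeR interaction test none of the 8 was called for a genotype difference that differed between tumor and TDLN in CD45+ cells (0% of all genes called, 1 of the 8 with an unadjusted p below 0.05).

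The width of these comparisons differed between genes. In CD45+ TILs the standard error of the genotype difference was 0.22 for Batf3, whose log2 fold change was 0.32, and 0.50 for Siglech, whose log2 fold change was -0.21. For Xcr1 the difference was 0.75 (SE 0.39), for Clec9a 0.51 (SE 0.33), for Flt3 0.54 (SE 0.37) and for Zbtb46 0.58 (SE 0.42). Within WT CD45+ TILs, replicate 2 was the highest library for Xcr1, Clec9a, Batf3, Flt3, Zbtb46, Cd209a and Fscn1, and replicate 4 was the lowest for Xcr1, Clec9a, Flt3, Cd209a and Siglech.

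In tumor T cells, where the group means of all 8 genes were below those of CD45+ TILs, Fscn1 and Siglech differed most between the genotypes. Fscn1 was at 16.1, 64.7, 49.4 and 24.9 CPM in WT CD4+ TILs and 1.58, 3.00, 37.0 and 1.73 CPM in Yap-cKO CD4+ TILs. In CD8+ TILs it was at 12.9, 131, 47.4 and 29.9 CPM in WT mice against 3.12, 4.01, 18.0 and 3.19 CPM in Yap-cKO. In both sorts replicate 3 was the only Yap-cKO library that overlapped with WT. Fscn1 was called lower in Yap-cKO CD8+ TILs (log2 -2.93, SE 0.78, edgeR adjusted p = 0.0369), the only 1 of the 8 genes tested there (12.2% of all genes called, 9.14% as lower), and not called in CD4+ TILs (log2 -1.69, SE 0.97, edgeR adjusted p = 0.302), where none of the 7 genes tested was called (8.02% of all genes) and 3 had an unadjusted p below 0.05. Over 14 alternatives Fscn1 stayed below 0 in both sorts, at log2 -4.11 to -1.13 in CD4+ TILs (adjusted p 0.00103, in edgeR without Yap-cKO replicate 3, to 1.0) and at -4.24 to -2.05 in CD8+ TILs (adjusted p 0.000466 to 0.322 by edgeR or DESeq2). In CD8+ TILs the call was lost without any of 6 of the 8 libraries, with adjusted p up to 0.0922 by edgeR. The calls over all genes moved as well. In the full set of libraries 1719 genes were called in CD8+ TILs, but 1 without Yap-cKO replicate 2, 322 without WT replicate 1 and 1 with either the replicate block or a term for Y-linked expression. In CD4+ TILs 1139 genes were called, 332 to 3236 with a library left out and 2 with the Y-linked term.

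Transcripts of melanoma cells were lower in Yap-cKO in the same libraries. The 6 melanoma genes summed to 16500, 12100, 5260 and 7490 CPM in WT mice against 156, 777, 2190 and 817 CPM in Yap-cKO CD4+ TILs, and to 13000, 10000, 3630 and 11000 CPM in WT mice against 36.2, 463, 2350 and 1050 CPM in Yap-cKO CD8+ TILs. Yap-cKO replicate 3, the highest for Fscn1, had the highest melanoma sum of its group in both sorts, whereas WT replicate 1 had the highest sum and the lowest Fscn1 of its group in both. The 7 fibroblast and pericyte genes summed to 109 to 567 CPM in WT mice against 8.86 to 54.9 CPM in Yap-cKO CD4+ TILs, and to 42.1 to 761 and 5.32 to 10.4 CPM in CD8+ TILs, and the highest CD8+ sums of fibroblast (761 CPM) and endothelial genes (1140 CPM) were both in WT replicate 2, the library with the most Fscn1 and the most Zbtb46 (32.2 CPM) of the WT CD8+ TILs. The part of these cells in the T-cell values of Fscn1 and Zbtb46 was not tested.

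**Figure D4:**
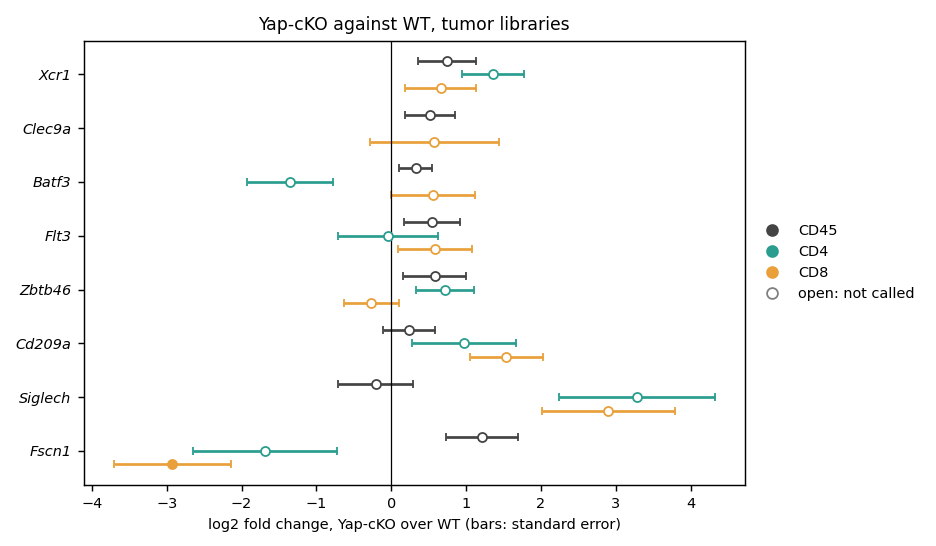
Log2 fold change of Yap-cKO over WT in tumor libraries for the 8 genes, with standard errors, in CD45+ (dark grey), CD4+ (green; Clec9a not tested) and CD8+ cells (orange); the filled point was called. Fscn1 in CD8+ TILs (-2.93) is the only gene called, and Siglech lies at 3.28 and 2.90 in T cells and -0.21 in CD45+ cells.

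Siglech went the other way. It was at 0.872, 1.72, 0.786 and 1.71 CPM in WT CD4+ TILs and 0.675, 32.2, 11.6 and 1.17 CPM in Yap-cKO CD4+ TILs. In CD8+ TILs it was at 1.07, 2.75, 0.966 and 0.115 CPM in WT mice against 1.96, 18.2, 12.4 and 3.47 CPM in Yap-cKO. Yap-cKO replicates 2 and 3 were high in both sorts, whereas replicates 1 and 4 did not exceed the highest WT library in CD4+ TILs, and in CD8+ TILs replicate 1 did not and replicate 4 did so slightly. It did not pass the test in CD4+ (log2 3.28, SE 1.04, edgeR adjusted p = 0.0814) or CD8+ TILs (log2 2.90, SE 0.89, edgeR adjusted p = 0.0549). DESeq2 called it in both, at log2 3.25 (adjusted p = 0.0024) and 2.86 (adjusted p = 0.00468). Over the 14 alternatives, run in edgeR but for that one, it was at log2 1.96 to 3.68 in CD4+ (adjusted p 0.0024 to 1.0) and 1.5 to 6.25 in CD8+ TILs (adjusted p 0.00468 to 0.23). Same-numbered CD4+ and CD8+ TIL libraries of Yap-cKO deviated together over all genes (r = 0.155 to 0.621) and may come from the same mouse, so that both sorts are not independent evidence.

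Some other pDC transcripts stood high in the same libraries. Those named below were picked from 10 other plasmacytoid genes, of which Tcf4, Runx2, Ccr9, Pacsin1 and Bst2 are given only within the sum. The sum of all 10 other plasmacytoid genes followed less closely. By replicate it was 193, 222, 274 and 151 CPM in Yap-cKO CD4+ TILs, against 127 to 155 CPM in WT. In Yap-cKO CD8+ TILs it was 202, 206, 181 and 171 CPM, with replicate 1 above replicate 3, against 138 to 200 CPM in WT. In CD4+ TILs Klk1 was at 11.7 and 15.5 CPM in Yap-cKO replicates 2 and 3 but at 0 in replicates 1 and 4 and at most 2.01 CPM in WT. Cox6a2 was at 6.47 and 7.03 CPM in those 2 libraries and at most 1.13 CPM in the other 6 CD4+ TIL libraries. In CD8+ TILs Klk1 was at 4.28 and 7.42 CPM and Cox6a2 at 5.09 and 3.48 CPM in replicates 2 and 3, against at most 0.755 and 1.29 CPM in the other 6. Cd300c and Spib followed in CD4+ TILs, at 2.14 and 1.68 CPM and at 5.35 and 4.92 CPM, whereas Tlr9 stayed at 0.153 CPM or less there. The same replicates were not the ones with the most Siglech in CD45+ TILs, where Yap-cKO replicate 3 was the lowest of the 8, at 44.7 CPM, and replicate 4 the highest. By the study's methods the stain for the T-cell sorts also held an antibody to CD3, but whether the gates required CD3 is not stated. The source of these transcripts was not tested.

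**Figure D5:**
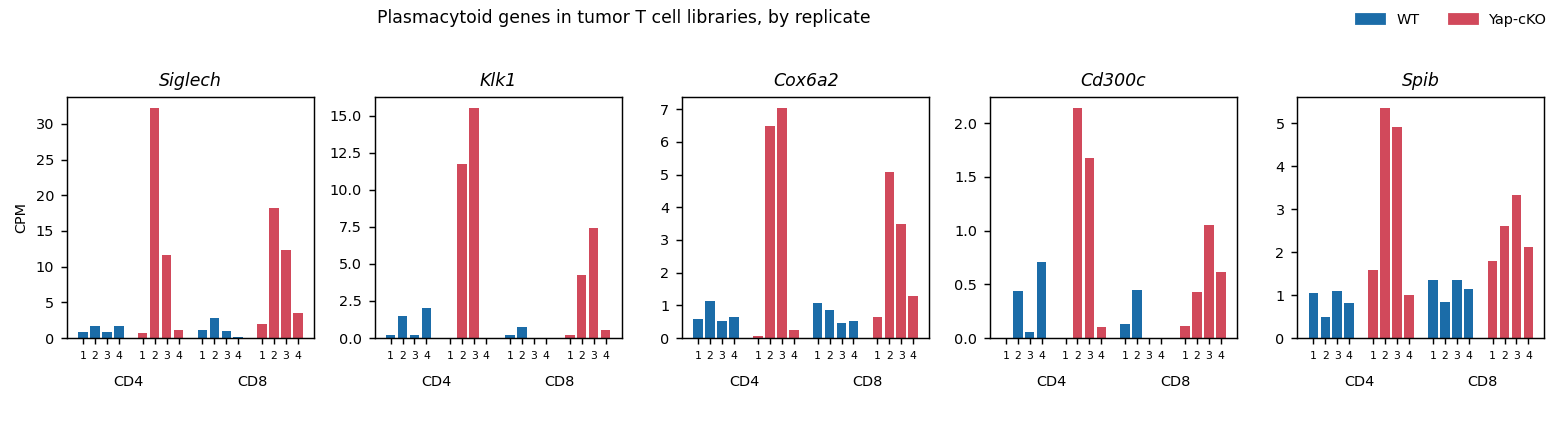
CPM of Siglech and 4 genes picked from the 10 other plasmacytoid genes in the 16 tumor T-cell libraries, as bars by replicate for CD4+ and CD8+ cells (blue WT, red Yap-cKO). Yap-cKO replicates 2 and 3 hold the highest bars of Siglech, Klk1, Cox6a2 and Spib in both sorts.

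The other genes gave no call by edgeR between genotypes in tumor T cells. In CD4+ TILs Batf3 was at 1.06 to 1.82 CPM in WT mice against 0.153 to 1.02 CPM in Yap-cKO, without overlap (two-sided exact permutation p = 0.0286, which was so for 17.1% of all genes), but at log2 -1.35 (SE 0.57, edgeR adjusted p = 0.177). Xcr1 was at 2.50 to 4.61 CPM in WT mice against 4.50 to 12.9 CPM in Yap-cKO (log2 1.36, SE 0.41, edgeR adjusted p = 0.0712). DESeq2 called Xcr1 there (log2 1.34, adjusted p = 0.0132), and without Yap-cKO replicate 3 edgeR called both Xcr1 (log2 1.54, adjusted p = 0.0103) and Batf3 (log2 -1.95, adjusted p = 0.0245). Over the 14 alternatives Xcr1 was at log2 0.283 to 1.54 and Batf3 at -2.78 to -0.978. The adjusted p by edgeR or DESeq2 ran from 0.0103 to 1.0 for Xcr1 and from 0.0113 to 1.0 for Batf3. In CD8+ TILs Cd209a was at 1.65 to 4.43 CPM in WT mice against 3.98 to 12.4 CPM in Yap-cKO (log2 1.54, SE 0.49, edgeR adjusted p = 0.0606). DESeq2 called it (log2 1.5, adjusted p = 0.0164), as did edgeR without Yap-cKO replicate 3 (log2 1.74, adjusted p = 0.0419). Over the 14 alternatives Cd209a was at log2 0.168 to 2.02 there (adjusted p 0.0164 to 0.834 by edgeR or DESeq2). With scaling on leukocyte genes, which shifted the median of all genes to -1.13 in both sorts, Zbtb46 and Cd209a in CD4+ TILs and Xcr1, Clec9a, Batf3 and Flt3 in CD8+ TILs turned from above to below 0, and edgeR called Batf3 in CD4+ (log2 -2.78, adjusted p = 0.0113) and Zbtb46 in CD8+ TILs (log2 -1.62, adjusted p = 0.025). Of the 10 macrophage and monocyte genes, 6 were called higher in Yap-cKO CD8+ TILs and none lower (median log2 2.03), and their part in the Cd209a value was not tested. The sum of 7 T-cell genes was 652 to 2530 CPM in WT and 2750 to 4040 CPM in Yap-cKO CD4+ TILs. In CD8+ TILs it was 1400 to 3760 CPM in WT mice against 3830 to 4860 CPM in Yap-cKO. The part of this difference in the values above was not tested. In TDLN T cells none of 6 genes tested in CD4+ cells (0.0462% of all genes called) and none of 4 in CD8+ cells (0.0158%) was called by edgeR, and 1 and 0 had an unadjusted p below 0.05. By the interaction test the genotype difference did not differ between tumor and TDLN beyond the threshold for any of the 7 genes tested in CD4+ cells (1.36% of all genes called) or the 8 in CD8+ cells (0.422%), where 1 and 2 had an unadjusted p below 0.05.

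Tumor against TDLN was also read within the T-cell sorts. In WT CD4+ cells 3 of 7 genes tested were called higher in tumor (37.3% of all genes called, 22.9% as higher), and in Yap-cKO CD4+ cells 3 of 6 (18.5% and 12.4%). In WT CD8+ cells 3 of 6 were called higher (37.7% and 22.5%), and in Yap-cKO CD8+ cells 4 of 7 (15.9% and 10.9%), and none was lower in any of these. Some genes met the count filter only through their TILs, so that they could hardly have been called lower. Batf3 held 14 to 47 counts in WT CD8+ TILs and 2 to 6 in the TDLN cells. Cd209a held 80 to 214 counts in Yap-cKO CD8+ TILs and 1 to 6 in the TDLN cells. In WT the genes called were Batf3, Zbtb46 and Fscn1 in both sorts, and Fscn1 rose by log2 4.96 (SE 0.56) in CD4+ and 4.53 (SE 0.81) in CD8+ cells. In Yap-cKO they were Xcr1, Zbtb46 and Cd209a in CD4+ and Batf3, Zbtb46, Cd209a and Siglech in CD8+ cells, where Fscn1 changed by log2 0.31 (SE 0.81, edgeR adjusted p = 0.832). Several of these calls were lost with 1 library left out. Batf3 in WT CD4+ cells was lost without any of 5 of the 8 libraries (edgeR adjusted p 0.0564 to 0.0755), and Xcr1 in Yap-cKO CD4+ cells with the replicate block or without any of TDLN replicates 2, 3 and 4 (0.0536 to 0.0622). In Yap-cKO CD8+ cells Batf3 and Siglech were lost without TIL replicate 2 (edgeR adjusted p = 0.0533 and 0.0665), and Batf3 also without TIL replicate 3 or TDLN replicate 1 (0.0679 and 0.0554). Cd209a did not reach the count filter there once any 1 TIL library was left out. Markers of other cells differed between the tissues in these sorts as well. The melanoma sum was 5260 to 16500 CPM in WT CD4+ and 3630 to 13000 CPM in WT CD8+ TILs, 156 to 2190 and 36.2 to 2350 CPM in Yap-cKO, and at most 13.5 CPM in TDLN T cells. The fibroblast and pericyte sum of TDLN T cells was at most 5.90 CPM, against 8.86 to 567 CPM in CD4+ and 5.32 to 761 CPM in CD8+ TILs. The sum of 7 T-cell genes was 652 to 2530 CPM in WT CD4+ and 1400 to 3760 CPM in WT CD8+ TILs against 2790 to 4250 and 4460 to 6990 CPM in the corresponding TDLN cells. The part of these cells in the T-cell values was not tested. WT and Yap-cKO here are separate tests, and the interaction test above is the test of their difference.

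Over the 16 CD45+ libraries, deviations from the group means were compared between genes as a description, since these libraries share their sort and depth. Clec9a and Flt3 deviated together (Pearson r = 0.847), as did Flt3 and Cd209a (r = 0.83), whereas Xcr1 and Batf3 did not (r = -0.07), nor did Zbtb46 and Siglech (r = 0.07). Of the 10 other plasmacytoid genes, Cox6a2 (r = 0.865), Cd300c (r = 0.851), Ccr9 (r = 0.847) and Klk1 (r = 0.822) deviated most with Siglech, and Tlr9 (r = -0.34) and Spib (r = -0.31) did not. Cd209a deviated most with Clec10a (r = 0.915) of the cDC2 genes, and Fscn1 with Cacnb3 (r = 0.828) and Ccl22 (r = 0.709) of the genes of mature cells.

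Over the 12 group means, with 15145 other genes compared, the genes whose pattern was most like that of each of the 8 were Nccrp1, Gm3336 and Kcnk6 for Xcr1 (Pearson r = 0.973 to 0.979), Fcrlb, Ffar4 and Slc8a1 for Clec9a (0.992 to 0.996), Lrrc25, Clec5a and Flrt3 for Batf3 (0.994 to 0.995) and Lilra6, Klrb1b and Sh2b2 for Flt3 (0.992 to 0.997). They were S100a11, Cetn4 and AA467197 for Zbtb46 (0.974 to 0.978), Tifab and Atf3 for Cd209a (0.991 and 0.987), Smim5, Atp2a1 and Cd300c for Siglech (0.98 to 0.982) and Tcf7l2, Depdc7 and Sod3 for Fscn1 (0.986 to 0.992). With 12 points that fall mainly into CD45+ TILs and the rest, many genes reach such values.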

How the data were processed

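Sorted cells were sequenced from libraries made with the SMART-Seq v4 Ultra Low Input kit, which does not mark strand. Per the labels, the authors trimmed reads with Trimmomatic and quantified transcripts with Salmon 0.9.1 against mm10, and the deposited tables hold expected counts and TPM for each transcript and library. Here expected counts were summed per gene over GENCODE M21 (111787 of 112092 transcripts matched; unmatched transcripts held 0.0488 to 0.18% of counts), rounded, and tested with edgeR 4.0.16 (TMM, quasi-likelihood; keeping genes that reached 10 counts in 4 or more libraries), and deposited TPM were summed per gene. Each contrast was fitted on its own groups, with CD45+ cells set against the average of CD4+ and CD8+ cells. Alternatives were DESeq2 1.42.0, no count filter, adjusted p alone, the replicate number as a block, scaling on 15 leukocyte genes, each library left out and, chosen after seeing the data, a term for Y-linked expression. In data simulated for the CD45+ tumor to TDLN comparison in WT (14090 genes), 74% of genes changed by 1 and 98.9% of those changed by 2 on the log2 scale were recovered. For the genotype comparison in CD45+ TILs these shares were 67.3% and 100%. The simulation gave every gene the same dispersion and counted recovery by adjusted p and sign, without the fold-change limit. The spread of the 8 genes themselves was not modelled, so these shares do not give the recovery for them. The 8 genes and all gene lists were chosen with earlier results of these data known. All 8 genes are named throughout; of each other list the text gives counts and up to 4 called genes with the largest change, plus Irf8, Xcl1, Flt3l and Ccr7, and other genes named beside these were chosen after their values were seen. No 2 of the 72 replicate pairs held identical values. Same-numbered libraries may come from the same mouse, which the labels do not state; their deviations correlated above 0.1 in every pair among the 3 sorts of WT TILs and between CD4+ and CD8+ cells of Yap-cKO TILs and WT TDLNs, and not in every pair between genotypes or tissues. The edgeR and DESeq2 p-values set a difference between groups against the spread between libraries, which were taken as independent except with the replicate block. Exact permutation p-values place the observed difference among all relabelings of the libraries. Floors cover counting error only. For each of the 8 genes the 3 genes of most similar pattern over the group means are named, except that 1 of those for Cd209a is not reported here.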

Additional observations from a re-analysis of the deposited data

Results flagged for a closer look

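In 8 of the 96 sets of 4 libraries examined (8 genes in 12 groups), the highest or lowest library stood apart from the other 3 by more than Dixon's 95% limit; chance gives about 1 in 20 such sets. Clec9a was listed at 0 CPM in Yap-cKO CD8+ TIL replicate 4, against 0.636 to 0.65 CPM in the others. Batf3 was at 5.20 CPM in WT CD45+ TDLN replicate 4, against 0.83 to 1.40 CPM. Cd209a was at 24.4 CPM in Yap-cKO CD4+ TIL replicate 1 (others 3.90 to 5.73 CPM), at 4.43 CPM in WT CD8+ TIL replicate 1 (others 1.65 to 1.96 CPM) and at 0.0559 CPM in WT CD4+ TDLN replicate 3 (others 1.90 to 2.01 CPM).

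Fscn1 gave the other 3. It was at 25.9 CPM in WT CD45+ TIL replicate 1, against 147 to 156 CPM in the others. It was at 37.0 CPM in Yap-cKO CD4+ TIL replicate 3, against 1.58 to 3.00 CPM, and at 18.0 CPM in Yap-cKO CD8+ TIL replicate 3, against 3.12 to 4.01 CPM. Yap-cKO replicate 3 also had the highest melanoma sum among the Yap-cKO libraries of both sorts, at 2190 CPM in CD4+ and 2350 CPM in CD8+ TILs.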

How the results depend on the processing

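Of the 2097 recomputed values of single genes, 1944 kept their direction and their side of the threshold, 49 newly passed it, 33 no longer passed it and 71 changed sign, none of them called before or after. The number of the 8 genes called in CD45+ cells between tumor and TDLN stayed at 8 in WT and 7 or 8 in Yap-cKO under every alternative, and was 8 without replicate 1 of the Yap-cKO TDLN group. Between genotypes, counts in CD4+ TILs (0) became 2 with DESeq2, 1 with no count filter and 2 with leukocyte scaling, and counts in CD8+ TILs (1) became 3, 2 and 2. With a term for Y-linked expression the CD8+ TIL count was 0 and the CD45+ TDLN count, otherwise 0, was 1 (Batf3, lower). The replicate block gave 1 gene in CD4+ TILs (Fscn1), 0 in CD8+ TILs and 8 in CD45+ against T cells of WT TILs. In WT TILs same-numbered libraries deviated together, though the labels do not say that they share a mouse. The block kept every other count within 1.5 times. Leaving out 1 library gave 0 to 3 genes for CD4+ TILs, with 3 without Yap-cKO replicate 3, and 0 to 2 for CD8+ TILs between genotypes. In CD8+ TILs Fscn1 lost its call without WT replicates 1, 2 or 4 or Yap-cKO replicates 1, 2 or 4. Tumor against TDLN gave 2 to 5 in WT CD4+ (5 without TIL replicate 4), 2 to 5 in WT CD8+ (5 without TDLN replicate 4), 2 to 3 in Yap-cKO CD4+ and 1 to 5 in Yap-cKO CD8+ cells, with 1 without Yap-cKO TIL replicate 2 and 2 without replicate 3. Leukocyte scaling moved the median log2 fold change of all genes to -1.13 in both T-cell TIL comparisons of genotypes and to 1.30 and 1.48 for tumor against TDLN in WT CD4+ and CD8+ cells, where 6 genes were then called in each, and 6 in place of 8 were called in CD45+ against T cells of WT TILs. The interaction gave 1 in CD4+ cells with leukocyte scaling, 2, 1 and 1 in CD8+ cells with DESeq2, no filter and leukocyte scaling, and 0 to 2 and 0 to 1 with a library left out, the highest in both without Yap-cKO TIL replicate 3. The cause of these moves was not tested. At these depths Clec9a in T cells lay at or near the floor of 3 counts, which limits any comparison there.

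The 71 changes of sign, on the log2 scale, were as follows. Leukocyte scaling gave, between genotypes, Zbtb46 (-0.42) and Cd209a (-0.22) in CD4+ TILs, Xcr1 (-0.50), Clec9a (-0.78), Batf3 (-0.75) and Flt3 (-0.61) in CD8+ TILs and Zbtb46 (0.035) in CD8+ TDLN cells. For the interaction it gave Batf3 (-0.815) and Zbtb46 (-0.28) in CD4+ cells and Xcr1 (-0.73), Clec9a (-0.49), Batf3 (-1.21), Flt3 (-0.76) and Siglech (-0.29) in CD8+ cells. The Y-linked term gave Flt3 (1.24) in CD4+ TILs, Xcr1 (-0.012) and Flt3 (-0.038) in CD4+ TDLN cells, Zbtb46 (0.44) in CD8+ TILs, Flt3 (-0.66) and Zbtb46 (0.15) in CD8+ TDLN cells, Siglech (0.67) in CD45+ TILs and Xcr1 (0.13), Clec9a (-0.34) and Siglech (-0.40) in CD45+ TDLN cells. The replicate block gave Flt3 (-0.00697) and Zbtb46 (0.010) in CD8+ TDLN cells and Clec9a (-0.19) and Siglech (-0.61) in CD45+ TDLN cells, and DESeq2 gave Zbtb46 (0.000114) in CD8+ TDLN cells. With a library left out the rest ranged across 0. Between genotypes these were Flt3 at -0.549 to 0.40 in CD4+ TILs, Zbtb46 at -0.45 to 0.18 and Batf3 at -0.0215 to 0.81 in CD8+ TILs, Zbtb46 at -0.35 to 0.35 and Flt3 at -0.41 to 0.49 in CD8+ TDLN cells, and Siglech at -0.902 to 0.11 and Cd209a at -0.036 to 0.48 in CD45+ TILs. In CD45+ TDLN cells they were Xcr1 at -0.21 to 0.0115, Clec9a at -0.64 to 0.27, Siglech at -0.945 to 0.46, Flt3 at -0.587 to 0.031 and Zbtb46 at -0.096 to 0.55. For tumor against TDLN Siglech was at -0.135 to 0.31 in WT CD4+ and Fscn1 at -0.72 to 0.75 in Yap-cKO CD8+ cells. For the interaction Batf3 was at -0.37 to 1.02 and Flt3 at -0.78 to 0.18 in CD4+ cells, Zbtb46 at -0.65 to 0.22, Clec9a at -0.32 to 1.77 and Batf3 at -0.425 to 0.52 in CD8+ cells, and Siglech at -0.97 to 0.795 in CD45+ cells.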
